A study of Mus musculus with 10 samples.

Results

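Overexpression of CCN1 was compared directly with overexpression of GPC4 in embryonic mouse cortex, with the control plasmid libraries left out of the contrast. The comparison took the 2 libraries labelled PB-CCN1 and the 2 labelled PB-GPC4, 4 of the 10 libraries of the series, and all 15371 genes that passed a filter on low counts. Both groups were wildtype embryos of the ICR strain. Their cortex had received a PiggyBac transposase plasmid at 3 µg/µl and the overexpression plasmid at 1.5 µg/µl by injection into the lateral ventricle and in utero electroporation at E13.5. GFP+ cells were sorted from the dissociated cortex at E15.5, and mRNA was sequenced from each sort. A further 2 libraries with the control plasmid PB-Ctrl, from the same strain and days, are given beside the results as a background level. The labels do not say whether replicates were separate embryos or litters, so p-values measure only the spread between libraries. That spread was estimated over all 10 libraries of the series. The others were wildtype (WT) and Ccn1 conditional knockout (CcKO) libraries, electroporated at E14.5 and taken at E17.5.

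CCN1 is a secreted matricellular protein that binds integrins and heparan sulfate proteoglycans. GPC4 is a glypican, a heparan sulfate proteoglycan tethered to the cell surface by a lipid anchor, and glypicans modulate how cells receive growth factors such as FGF, Wnt and BMP ligands. PiggyBac is a transposon whose transposase inserts plasmid cargo into the genome, so that the progenitors lining the ventricle and their neuronal progeny keep the cargo. At the stage sampled, cortical progenitors are radial glia and intermediate progenitors, and their progeny migrate outwards as newborn neurons.

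The PB-CCN1 libraries held 22505945 and 23514678 counts and the PB-GPC4 libraries 26061810 and 30825498. Counting error did not account for the spread between replicates: the chi-square per degree of freedom was 4.57 for PB-CCN1 and 4.6 for PB-GPC4. Transcripts typical of lung epithelium were present in both PB-CCN1 and both PB-Ctrl libraries and at or near 0 in both PB-GPC4 libraries, as described after the plasmid genes. Microglial transcripts summed to 14.4 and 12.2 CPM (counts scaled to a common library size) in PB-CCN1 and to 22.4 and 23.3 CPM in PB-GPC4. Erythroid transcripts summed to 5.2 and 5.78 CPM and to 11.7 and 9.38 CPM in the same order. The choroid plexus markers Ttr and Prlr were at 0 counts in all 4 libraries.

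Each plasmid gene was high in its own libraries alone. Ccn1 (build GRCm38.p6, chromosome 3, 145646971 to 145649985, Entrez gene 16007) stood at 7100 and 7000 CPM in PB-CCN1 and at 36.2 and 29.9 CPM in PB-GPC4, with 50.5 and 57.4 CPM in PB-Ctrl. Gpc4 (chromosome X, 52051007 to 52164923, Entrez gene 14735) stood at 72.4 and 73.7 CPM in PB-CCN1 and at 5120 and 5000 CPM in PB-GPC4, with 70.6 and 66.1 CPM in PB-Ctrl. Groups did not overlap for either gene. Ccn1 was 214-fold higher in PB-CCN1 (log2 fold change 7.74, SE 0.14, edgeR adjusted p = 1.17e-25) and Gpc4 69.3-fold higher in PB-GPC4 (log2 fold change -6.11, SE 0.05, edgeR adjusted p = 5.74e-34). Reads of the plasmid and of the endogenous gene were not separated. None of the 4 other glypicans and 4 other CCN genes tested was called by edgeR or DESeq2, with 1 and 0 at an unadjusted p under 0.05: Gpc1, a glypican of neural progenitors and neurons, was at 255 and 249 CPM against 247 and 244 CPM, and Ccn2, a close relative of Ccn1, at 2.6 and 1.47 CPM against 2.73 and 3.02 CPM.

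**Figure D1:**
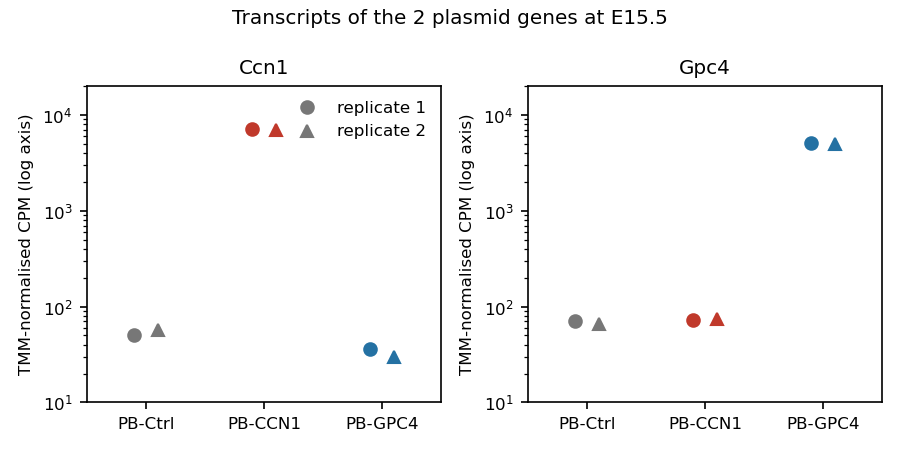
TMM-normalised CPM of Ccn1 and Gpc4 (log axis) in each E15.5 library, by group, with circles for replicate 1 and triangles for replicate 2. Each gene exceeds 1000 CPM in the libraries of its own plasmid, and lies under 100 CPM in the other 4.

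Across all genes the contrast was small in size. With edgeR's quasi-likelihood test and a Benjamini-Hochberg adjusted p under 0.05, 331 of the 15371 genes were called (2.15%), of which 215 were higher in PB-CCN1 (1.40%) and 116 higher in PB-GPC4 (0.755%). The median called gene differed by 1.3-fold, and 36 genes higher in PB-CCN1 and 16 higher in PB-GPC4 differed by at least 2-fold. The groups did not overlap for 330 of the 331, as was so for 46.9% of all tested genes. The mean of the PB-Ctrl libraries lay between the means of the 2 groups for 212 of the 331 genes, and it was nearer to PB-CCN1 for 248 and nearer to PB-GPC4 for 83, which is given as a description without a test. Genes of the lung epithelium list made up 20 of the 215, which leaves 195.

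The number of calls moved with single libraries. It fell when a PB-CCN1, PB-GPC4 or PB-Ctrl library was left out and rose when a CcKO library was left out. The CcKO libraries, the E17.5 Ccn1 conditional knockouts, enter the filter on low counts, the scaling and the shared estimate of spread, but not the contrast. Genes higher in PB-CCN1 were 65% of the calls, against 54.4% once a trend with gene length was removed and 47.4% with DESeq2. In each of the 4 fits without a PB-CCN1 or PB-GPC4 library, 56 of the 331 kept their call. Among the genes described below they were Scgb1a1, Cyp2f2, Sftpc, Sftpb, Sftpa1, Scgb3a2, Sec14l3, Cbr2, Fos, Fosb, Npas4, Nr4a1, Plk2, Top2a, Mki67, Cdon, Agrn, Cwc22, Dynlt1b, Tmem181b-ps, Lypd10 and Zfp33b, while every other call named in the following results was lost in at least 1 of those fits, apart from the 2 genes Mepce and Hexim1 given among the other observations.

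**Figure D2:**
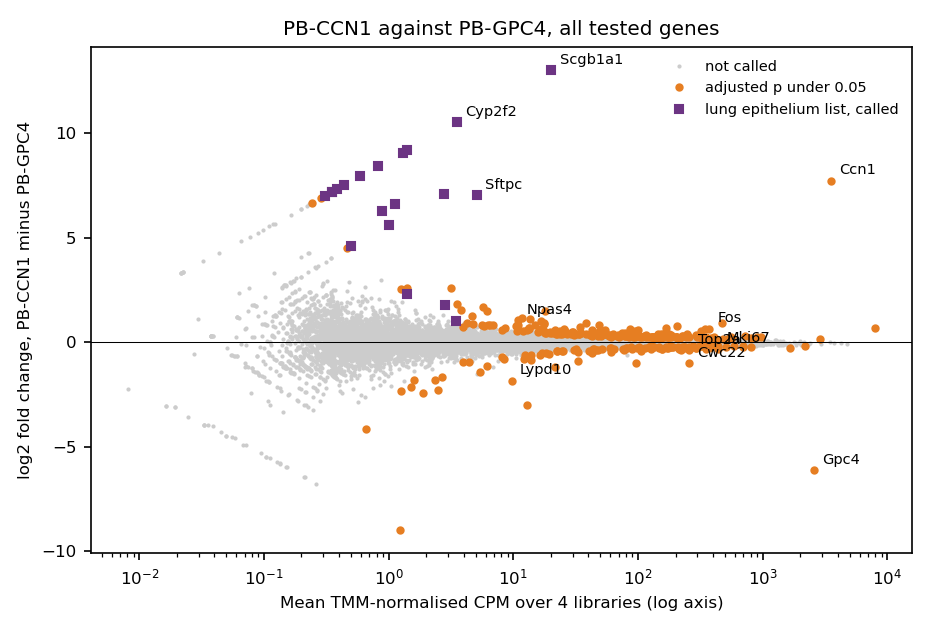
Log2 fold change of PB-CCN1 over PB-GPC4 against the mean TMM-normalised CPM over the 4 libraries (log axis), 1 point per tested gene, with called genes in orange and called members of the lung epithelium list as purple squares. Most called genes lie close to 0, Ccn1 and Gpc4 stand apart at high levels, and lung genes at low levels are among the largest differences; the fitted values of genes at 0 in a group depend on the prior count.

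Transcripts of lung epithelium were among the largest differences by fold, at levels far below those of the plasmid genes. This list was written after the values were seen: it held 32 genes, of which 27 were tested, 20 were higher in PB-CCN1 and none was higher in PB-GPC4. On the same list DESeq2 called 6 genes and limma on log2 FPKM called 15. DESeq2 gave no adjusted p for some members, among them Sftpb and Scgb3a2. Scgb1a1, the secretoglobin of airway club cells, was at 40 and 41 CPM in PB-CCN1, at 0 in both PB-GPC4 libraries, and at 33.4 and 39.8 CPM in PB-Ctrl. Against a floor of 3 counts per library, that is at least 376-fold higher in PB-CCN1 (edgeR adjusted p = 3.26e-18). Cyp2f2, a cytochrome P450 of club cells, was at 7.66 and 6.55 CPM against 0 and 0, at least 66-fold higher.

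Surfactant genes of alveolar type II cells showed the same distribution. Sftpc was at 10.5 and 9.65 CPM in PB-CCN1 and at 0 and 0.131 CPM in PB-GPC4, a count ratio of 140 (exact 95% interval 54.4 to 517, counting error only). For Sftpb the values were 2.06 and 2.37 CPM against 0.039 and 0 CPM, a ratio of 124 (21.7 to 4930). Sftpa1 was at least 15.3-fold and the secretoglobin Scgb3a2 at least 24.1-fold higher. The carbonyl reductase Cbr2 was at 5.78 and 5.3 CPM against 0 and 0.0656 CPM. Of the 20 called members, 11 had no count in either PB-GPC4 library. Smaller differences were seen for genes with other sources: Lyz2, the lysozyme of myeloid and alveolar cells, was at 4.39 and 4.4 CPM against 1.13 and 1.44 CPM.

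Scgb1a1 and Cyp2f2 were also at 0 in all 4 E17.5 libraries, so that these transcripts were present in 4 of the 10 libraries. Summed over the list, levels were 123 and 121 CPM in PB-CCN1, 106 and 121 CPM in PB-Ctrl, and 26 and 25.6 CPM in PB-GPC4. The source of these transcripts, within the sorted cells or outside them, was not tested. Bulk libraries also cannot tell fewer cells of a type from less RNA per cell. Leaving out 1 library took the count of called members to 11 without PB-CCN1 replicate 1, 13 without PB-CCN1 replicate 2, and 10 without either PB-GPC4 replicate. Scgb1a1, Cyp2f2, Sftpc, Sftpb, Cbr2, Scgb3a2, Sec14l3 and Sftpa1 stayed called in those 4 fits.

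**Figure D3:**
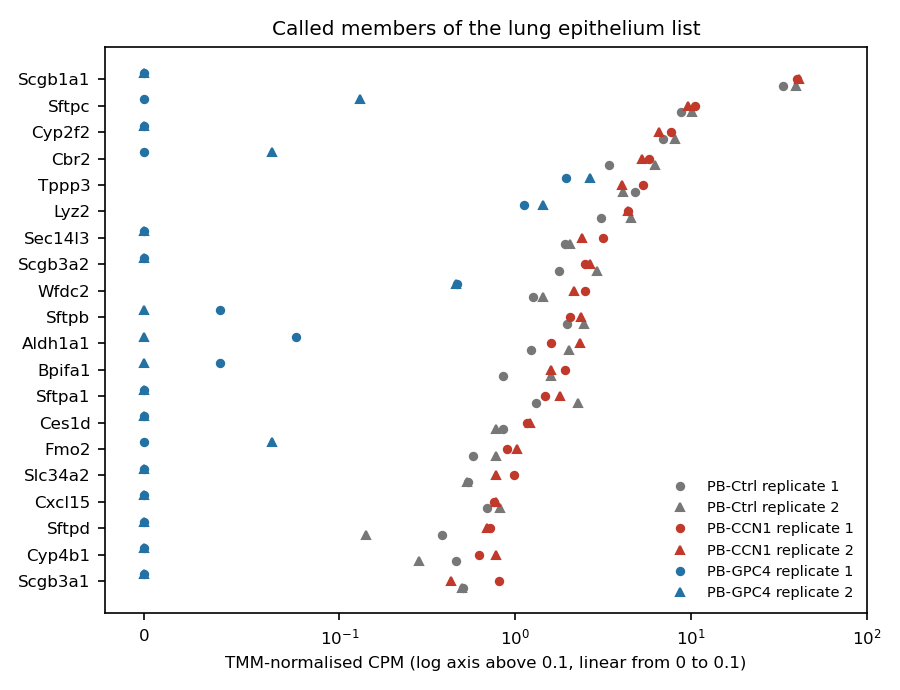
TMM-normalised CPM of the 20 called members of the lung epithelium list in each E15.5 library (linear from 0 to 0.1, logarithmic above), with grey for PB-Ctrl, red for PB-CCN1, blue for PB-GPC4, circles for replicate 1 and triangles for replicate 2. PB-CCN1 and PB-Ctrl points lie together, and PB-GPC4 points lie at 0 for 11 genes and below both other groups for the rest.

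Immediate-early genes, which neurons and progenitors transcribe within minutes of a stimulus, were higher in PB-CCN1. Of 25 listed and tested members, 10 were higher in PB-CCN1 and none in PB-GPC4, with a median log2 fold change of 0.34, against 1.40% of all genes higher in PB-CCN1 and a median of 0.00. Fos, a subunit of the AP-1 transcription factor, was at 463 and 441 CPM in PB-CCN1 and at 318 and 259 CPM in PB-GPC4, with 363 and 377 CPM in PB-Ctrl. It was 1.57-fold higher in PB-CCN1 (SE of log2 0.07, edgeR adjusted p = 4.96e-07). Its relative Fosb was at 207 and 206 CPM against 140 and 117 CPM (1.61-fold, edgeR adjusted p = 1.11e-07), with 197 and 198 CPM in PB-Ctrl. Npas4, an activity-induced factor of neurons, was at 16 and 13.6 CPM against 7.21 and 6.99 CPM (2.09-fold, edgeR adjusted p = 2.00e-06). The PB-GPC4 libraries were the low ones for Fosb and Npas4, while PB-CCN1 and PB-Ctrl were close to each other.

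The orphan nuclear receptor Nr4a1 was at 22.1 and 22.6 CPM against 11.7 and 10.7 CPM. The remaining called members were the AP-1 subunits Jun and Jund, the Krüppel-like factors Klf2 and Klf4, the MAP kinase phosphatase Dusp1, and Ier2. Jun was at 353 and 346 CPM in PB-CCN1 and 286 and 264 CPM in PB-GPC4, and both were below the 469 and 464 CPM of PB-Ctrl. Not every member took part: Egr1, the zinc finger factor often used to mark such induction, was at 68.9 and 64.3 CPM against 66.2 and 84 CPM (edgeR adjusted p = 0.372). The count of 10 became 4 without PB-CCN1 replicate 1, 9 without PB-CCN1 replicate 2, 8 without PB-GPC4 replicate 1 and 4 without PB-GPC4 replicate 2, and Fos, Fosb, Npas4 and Nr4a1 were called in each. The lung transcripts were high in the same libraries, and their part in these differences was not tested.

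Plk2, a polo-like kinase induced by neuronal activity and also a p53 target, differed in the same direction. It was at 257 and 260 CPM in PB-CCN1 and at 168 and 135 CPM in PB-GPC4, with 173 and 169 CPM in PB-Ctrl, 1.71-fold higher in PB-CCN1 (edgeR adjusted p = 6.17e-08). Here the PB-CCN1 libraries were the high ones. It was the only called member among 24 tested p53 targets, against 1.40% of all genes higher in PB-CCN1. Cdkn1a, the p21 cell cycle inhibitor, was at 11.7 and 10.7 CPM against 9.9 and 11.9 CPM, and Mdm2 at 122 and 132 CPM against 129 and 123 CPM.

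Genes of the unfolded protein response of the endoplasmic reticulum were higher in PB-GPC4. This pathway raises chaperones and folding enzymes when secretory proteins accumulate unfolded, through the sensors ATF6, IRE1 and PERK. Of 24 listed and tested members, 6 were higher in PB-GPC4 and none in PB-CCN1, with a median log2 fold change of -0.18, against 0.755% of all genes higher in PB-GPC4. All differences were small. Summed over the list, levels were 3030 and 3000 CPM in PB-Ctrl, 3300 and 3360 CPM in PB-CCN1, and 3660 and 3740 CPM in PB-GPC4. By this sum PB-CCN1 lay between PB-Ctrl and PB-GPC4. The endoplasmic reticulum chaperone Hyou1 was at 150 and 158 CPM in PB-CCN1 and at 183 and 195 CPM in PB-GPC4, with 143 and 135 CPM in PB-Ctrl, 1.23-fold higher in PB-GPC4 (edgeR adjusted p = 0.00485). Dnajc3, a co-chaperone that restrains PERK, was at 30.8 and 38.5 CPM against 44.6 and 48.4 CPM (1.34-fold). The disulfide isomerase Pdia6 was at 283 and 281 CPM against 320 and 331 CPM (1.15-fold).

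The other called members were Herpud1, of endoplasmic reticulum-associated degradation, at 56.7 and 57.7 CPM against 67.1 and 76.5 CPM, Creld2, a secretory-pathway protein induced by this stress, at 41.8 and 36 CPM against 51.1 and 47.8 CPM, and Hsp90b1, the chaperone GRP94, at 393 and 410 CPM against 449 and 465 CPM. Hspa5, the chaperone BiP, was at 550 and 548 CPM against 581 and 585 CPM (edgeR adjusted p = 0.384). The count of 6 became 2 without either PB-CCN1 replicate, 2 without PB-GPC4 replicate 1, 0 without PB-GPC4 replicate 2 and 12 without either CcKO replicate, and it was 13 with the 4 libraries alone and 0 with limma on log2 FPKM. Of 35 tested members of the integrated stress response list, which holds targets of ATF4, none was called by edgeR. DESeq2 called 1, against 378 calls over all genes. An unadjusted p under 0.05 was seen for 11, against 2204 of all 15371 genes, and 27 had negative values, against 7595. With the 4 libraries alone edgeR called 6, against 835 calls over all genes. Of those 6, 2 were higher in PB-CCN1 and 4 in PB-GPC4. The cystine transporter Slc7a11 was at 67.3 and 62.1 CPM against 113 and 82.2 CPM (edgeR adjusted p = 0.102), with 14.3 and 16.1 CPM in PB-Ctrl.

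The promoters of 4 called members are shown because the list is known for a shared control element. ERSE, the endoplasmic reticulum stress element read by ATF6 with NF-Y, was searched as CCAAT, any 9 bases and CCACG, and the shorter ERSE-II as ATTGG, any 1 base and CCACG, each on both strands. The RefSeq promoters (build GRCm38.p6, 250 bases before to 50 after the start) included 21 of the 24 members; Hyou1 was not matched. ERSE was found in 9 of the 21, among them Dnajc3, Creld2, Pdia6 and Hsp90b1 and also Hspa5, Calr, Canx, Syvn1 and Derl3, which were not called. It was found in 0.119% of all 32851 promoters. ERSE-II was found in Herpud1 and Dnajb11 and in 0.0365% of all promoters. Sequences run 5′ to 3′ in the direction of the gene, with the matches in capitals; the Creld2 match and the second Hsp90b1 match are to the reverse complement.
Dnajc3, chr14:118937682-118937981, plus strand: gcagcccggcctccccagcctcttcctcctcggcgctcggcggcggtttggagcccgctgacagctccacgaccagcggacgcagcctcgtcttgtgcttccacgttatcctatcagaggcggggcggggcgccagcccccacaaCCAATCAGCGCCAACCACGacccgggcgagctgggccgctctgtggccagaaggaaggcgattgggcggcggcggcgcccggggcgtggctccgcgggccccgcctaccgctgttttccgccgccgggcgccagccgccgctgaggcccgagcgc
Creld2, chr15:88819396-88819695, plus strand: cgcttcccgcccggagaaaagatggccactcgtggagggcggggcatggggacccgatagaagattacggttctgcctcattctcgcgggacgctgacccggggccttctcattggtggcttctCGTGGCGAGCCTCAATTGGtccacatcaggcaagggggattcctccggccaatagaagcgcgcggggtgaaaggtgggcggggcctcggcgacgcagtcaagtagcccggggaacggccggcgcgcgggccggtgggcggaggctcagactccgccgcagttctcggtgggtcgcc
Hsp90b1, chr10:86705395-86705694, minus strand: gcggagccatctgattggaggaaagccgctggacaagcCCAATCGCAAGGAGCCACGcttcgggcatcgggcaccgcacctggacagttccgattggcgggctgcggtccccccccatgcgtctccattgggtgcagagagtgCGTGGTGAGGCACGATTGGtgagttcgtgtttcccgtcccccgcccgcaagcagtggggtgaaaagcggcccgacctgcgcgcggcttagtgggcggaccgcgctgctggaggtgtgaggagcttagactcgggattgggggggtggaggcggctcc
Herpud1, chr8:94386179-94386478, plus strand: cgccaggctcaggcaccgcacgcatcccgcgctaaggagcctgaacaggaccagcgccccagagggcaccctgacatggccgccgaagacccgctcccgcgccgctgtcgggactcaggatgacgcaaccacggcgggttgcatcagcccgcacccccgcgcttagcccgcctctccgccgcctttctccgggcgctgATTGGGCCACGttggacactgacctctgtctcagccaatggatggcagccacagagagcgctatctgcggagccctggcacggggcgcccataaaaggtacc
The match began 105 bases before the start in Dnajc3, 126 before it in Creld2 and 52 before it in Herpud1, and Hsp90b1 had one 212 and one 107 bases before its start. A match describes the letters of the window only.

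**Figure D4:**
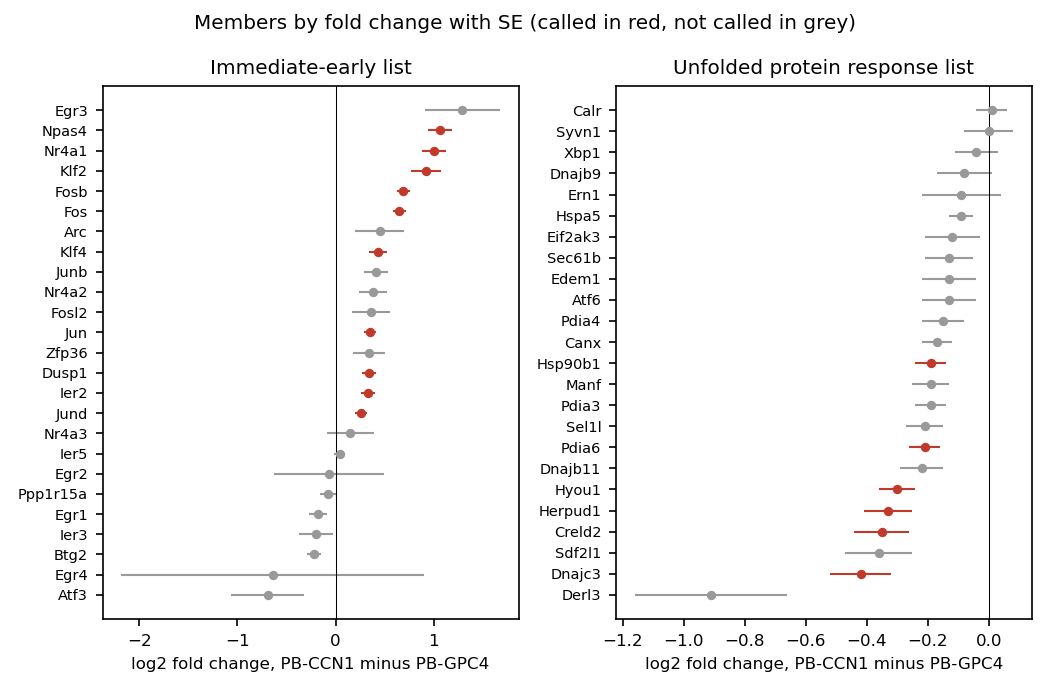
Log2 fold change of PB-CCN1 over PB-GPC4 for each tested member of the immediate-early list (left) and the unfolded protein response list (right), with bars for the standard error, called members in red and the others in grey. Called members lie right of 0 on the left and left of 0 on the right, while Egr1, Calr and Hspa5 are among those not called.

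Genes of mitosis were slightly higher in PB-GPC4. Of 25 tested members of the mitosis and G2/M list, 4 were called, all higher in PB-GPC4, against 0.755% of all genes. The median log2 fold change was -0.20, and 24 of the 25 had negative values, against 7595 of all 15371 genes. Top2a, the topoisomerase that untangles chromosomes, was at 226 and 224 CPM in PB-CCN1 and at 292 and 288 CPM in PB-GPC4, with 262 and 264 CPM in PB-Ctrl (1.29-fold higher in PB-GPC4, edgeR adjusted p = 9.13e-05). Mki67, the proliferation marker, was at 390 and 395 CPM against 484 and 484 CPM (1.23-fold, edgeR adjusted p = 0.000268), with 440 and 426 CPM in PB-Ctrl. For both genes PB-Ctrl lay between the groups. The mitotic motor Kif11 and the midzone protein Prc1 were the other calls. The count became 2 without PB-CCN1 replicate 1 and 2 without PB-GPC4 replicate 1, and Top2a and Mki67 kept their call in all 19 alternatives. Among G1 regulators, the kinase Cdk6 (39.5 and 40.5 CPM against 47.5 and 56.1 CPM) and its opponent Cdkn1b, the p27 inhibitor (292 and 304 CPM against 341 and 344 CPM), were both higher in PB-GPC4. Pola1, the catalytic subunit of DNA polymerase alpha, was the 1 called member of 25 genes of DNA replication.

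Differences in markers of radial glia were small. Of 24 tested, 20 had positive values and 9 an unadjusted p under 0.05, against 7776 and 2204 of all 15371 genes, with a median log2 fold change of 0.10. The called members were 2, both higher in PB-CCN1 as were 1.40% of all genes: Hes5, a Notch effector, at 17.7 and 14.9 CPM against 11.1 and 9.45 CPM (1.59-fold, edgeR adjusted p = 0.0236), and the glycolytic enzyme Aldoc, at 66.2 and 62.1 CPM against 53.4 and 52.4 CPM. These calls became 0 without PB-CCN1 replicate 1 or either PB-GPC4 replicate, and 1 without PB-CCN1 replicate 2 or either PB-Ctrl replicate. The stem cell factors Pax6, at 114 and 110 CPM against 112 and 104 CPM, and Sox2, at 93.5 and 94.7 CPM against 87.5 and 90.1 CPM, were not called. The intermediate progenitor factor Eomes was at 411 and 398 CPM against 430 and 429 CPM and was not called, while Elavl4, an RNA-binding protein of new neurons on the same list, was higher in PB-GPC4 (221 and 219 CPM against 259 and 260 CPM).

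Of 18 genes of newborn neurons and migration, 4 were higher in PB-GPC4 and none in PB-CCN1, with a median log2 fold change of -0.11, against 0.755% and 1.40% of all genes. Sema3c, a secreted guidance cue, was at 134 and 145 CPM in PB-CCN1 and at 165 and 184 CPM in PB-GPC4 (1.25-fold, edgeR adjusted p = 0.00297), with 122 and 123 CPM in PB-Ctrl. Its receptor subunit Nrp1 was at 455 and 477 CPM against 539 and 548 CPM, the netrin receptor Unc5d at 327 and 334 CPM against 380 and 375 CPM, and the microtubule protein Map1b at 1450 and 1540 CPM against 1800 and 1820 CPM. Dcx, the doublecortin of migrating neurons, was at 1300 and 1370 CPM against 1460 and 1460 CPM (edgeR adjusted p = 0.184). The count of 4 became 0 without PB-CCN1 replicate 1, 3 without PB-CCN1 replicate 2, 1 without PB-GPC4 replicate 1 and 0 without PB-GPC4 replicate 2. No member of the deep-layer or upper-layer neuron lists, 15 genes each, was called by edgeR, while DESeq2 called 2 and 0. An unadjusted p under 0.05 was seen for 4 and 5, against 2204 of all 15371 genes. Reln, secreted by Cajal-Retzius cells, was at 38.1 and 32.1 CPM against 50.3 and 49.5 CPM and was higher in PB-GPC4.

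**Figure D5:**
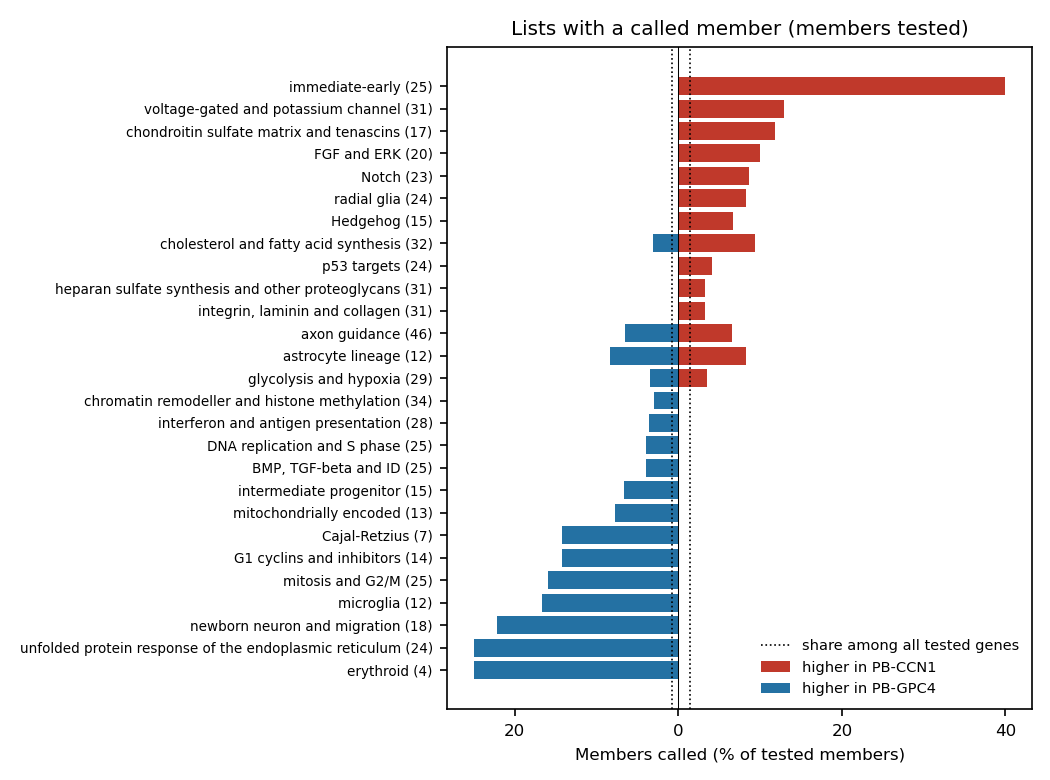
Share of tested members called for 27 lists with at least 1 call, leaving out the lung epithelium and 7SK lists that were written after the values were seen, to the right in red for members higher in PB-CCN1 and to the left in blue for members higher in PB-GPC4, with the number tested in parentheses and dotted lines at the shares among all tested genes (1.40% and 0.755%). Of the lists drawn, the immediate-early list has the longest red bar, and a bar of a small list can be 1 gene, as for the 4 erythroid genes.

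Calls among components of the signalling pathways that heparan sulfate proteoglycans modulate were single genes or pairs, against backgrounds of 1.40% of all genes higher in PB-CCN1 and 0.755% higher in PB-GPC4. In the Hedgehog list 1 of 15 genes was called: Cdon, a co-receptor for Hedgehog ligands, at 329 and 327 CPM in PB-CCN1 and 264 and 246 CPM in PB-GPC4, with 318 and 317 CPM in PB-Ctrl (1.29-fold, edgeR adjusted p = 0.000103). Cdon kept its call in all 19 alternatives. In the FGF and ERK list 2 of 20 were higher in PB-CCN1, namely the receptor Fgfr3 (64.8 and 55.6 CPM against 46.5 and 46 CPM) and the ERK phosphatase Dusp4 (107 and 109 CPM against 91.5 and 84.9 CPM). In the Notch list the receptor Notch3 accompanied Hes5, at 25.5 and 28.6 CPM against 19.2 and 20.4 CPM. The BMP receptor Bmpr1a was higher in PB-GPC4, at 91.2 and 94.1 CPM against 108 and 113 CPM. None of 22 Wnt and none of 23 Hippo and YAP genes was called by edgeR, while DESeq2 called 1 and 0. An unadjusted p under 0.05 was seen for 2 and 4, against 2204 of all 15371 genes.

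Among matrix genes, Agrn, which encodes the heparan sulfate proteoglycan agrin, was higher in PB-CCN1: 811 and 780 CPM against 644 and 656 CPM, with 768 and 799 CPM in PB-Ctrl (1.22-fold, edgeR adjusted p = 0.00017). It was the 1 called member of 31 genes of heparan sulfate synthesis and other proteoglycans, and kept its call in all 19 alternatives. The chondroitin sulfate proteoglycan Bcan (20.2 and 16.5 CPM against 14.2 and 12.1 CPM), the chondroitin polymerising factor Chpf and the laminin chain Lama5 were also higher in PB-CCN1. Axon guidance genes were called in both directions, 3 of 46 each way, against 1.40% and 0.755% of all genes: the semaphorin receptors Plxnb1 (283 and 272 CPM against 235 and 233 CPM) and Plxna3 and the semaphorin Sema5b were higher in PB-CCN1, and Sema3c, Nrp1 and Unc5d higher in PB-GPC4. These 6 calls became 0 without PB-CCN1 replicate 1 or PB-GPC4 replicate 2, 1 without PB-GPC4 replicate 1, and 3 without PB-CCN1 replicate 2 or either PB-Ctrl replicate. Of 31 ion channel genes, 4 were higher in PB-CCN1, against 1.40% of all genes, among them the calcium channel Cacna1b (82.7 and 79.6 CPM against 67.9 and 59.1 CPM) and the sodium channel Scn8a (85.9 and 87.6 CPM against 69.8 and 70.1 CPM). That count was 0 without either PB-CCN1 replicate or PB-GPC4 replicate 2, and 1 without PB-GPC4 replicate 1 or either PB-Ctrl replicate.

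Genes of glycolysis and those encoded in mitochondria had mostly negative values, with few calls. Of all 15371 genes, 7595 had negative values and 2204 an unadjusted p under 0.05. Calls by edgeR were 1.40% of all genes higher in PB-CCN1 and 0.755% higher in PB-GPC4. Of 29 glycolysis and hypoxia genes, 24 had negative values and 9 an unadjusted p under 0.05, with a median log2 fold change of -0.11; edgeR called the lactate dehydrogenase gene Ldha as higher in PB-GPC4 (175 and 172 CPM against 216 and 196 CPM) and Aldoc as higher in PB-CCN1, and DESeq2 called 5. Those 2 calls became 5 and 6 without CcKO replicates 1 and 2, 1 without PB-GPC4 replicate 2, and 0 without either PB-CCN1 or PB-Ctrl replicate or PB-GPC4 replicate 1. All 13 mitochondrially encoded genes had negative values, 6 with an unadjusted p under 0.05, with a median of -0.19. The single call among them, ATP6 of the ATP synthase, was at 0.627 and 1.47 CPM against 1.83 and 5.48 CPM, with PB-GPC4 replicate 2 well above the other libraries. ATP6 was a very small part of the list, which summed to 11600 and 12500 CPM in PB-CCN1 and to 12700 and 12900 CPM in PB-GPC4. DESeq2 and limma on log2 FPKM each called 0 of the 13. The sterol oxidase Msmo1 was at 62.7 and 64.6 CPM in PB-CCN1 and at 50.6 and 50.5 CPM in PB-GPC4 (1.26-fold, edgeR adjusted p = 0.0101), and the sterol carrier Stard4 was also higher in PB-CCN1, at 23.4 and 25.6 CPM against 17.2 and 18 CPM. Acly, which makes cytosolic acetyl-CoA, was higher in PB-GPC4 at 545 and 545 CPM against 624 and 626 CPM. None of 30 nuclear-encoded respiratory chain genes and none of 30 ribosomal protein genes was called by edgeR, while 3 and 4 had an unadjusted p under 0.05 and DESeq2 called 0 and 1.

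The genes most above PB-CCN1 in the PB-GPC4 libraries, apart from Gpc4, included Cwc22, Dynlt1b, Tmem181b-ps and Lypd10. Whether reads were split between similar gene copies was not tested. With 2 libraries a group, differences between plasmids cannot be told apart from differences between the embryos used for each group. Cwc22, a splicing factor, was at 164 and 177 CPM in PB-CCN1 and at 373 and 315 CPM in PB-GPC4, with 162 and 163 CPM in PB-Ctrl (2.02-fold, edgeR adjusted p = 1.66e-10). The dynein light chain gene Dynlt1b was at 13 and 13.2 CPM against 32.5 and 28 CPM, and Tmem181b-ps at 62.3 and 67 CPM against 136 and 121 CPM. Dynlt1b (6429530 to 6440500) and Tmem181b-ps (6439002 to 6450994) overlap on chromosome 17. Lypd10 was at 3.85 and 4.61 CPM in PB-CCN1, at 15.2 and 15.2 CPM in PB-GPC4 and at 21.2 and 18.7 CPM in PB-Ctrl, so here the PB-CCN1 libraries were the low ones. Padi4, a peptidylarginine deiminase, and Zfp33b, a zinc finger gene, followed the pattern of Lypd10, at 1.17 and 0.517 CPM against 4.06 and 4.26 CPM and at 0.627 and 0.474 CPM against 2.5 and 2.46 CPM.

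A few genes of blood and immune cells were also called as higher in PB-GPC4. The complement gene C1qc (0.314 and 0.517 CPM against 1.29 and 2.95 CPM) and the receptor Csf1r (0.896 and 0.517 CPM against 2.42 and 2.56 CPM) were called among 12 tested microglial genes, all 12 of which had negative values. Of all 15371 genes, 0.755% were called higher in PB-GPC4 and 7595 had negative values. DESeq2 and limma on log2 FPKM each called 0 microglial genes, and DESeq2 gave C1qc and Csf1r no adjusted p. The haemoglobin gene Hba-a1, at 2.64 and 3.19 CPM against 9.16 and 6.56 CPM, was the 1 call among 4 tested erythroid genes, of which 3 had negative values. The myeloid and alveolar lysozyme Lyz2 was higher in PB-CCN1, as given with the lung genes. Spp1, made by microglia among other cells, was at 0.493 and 0.69 CPM against 4.44 and 1.97 CPM. The 2 microglial calls became 0 without either PB-CCN1 replicate or PB-GPC4 replicate 2, and 1 without PB-GPC4 replicate 1 or either PB-Ctrl replicate. The part of these cells in the other differences was not tested.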

How the data were processed

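Bulk mRNA libraries were made from sorted cortical cells, in 5 groups of 2. Per the submitters' processing notes, the authors used bcl2fastq, Trimmomatic, HISAT2 and featureCounts with mm10; versions and the strand setting are not given in the sources used here. The deposited table holds raw read counts per Entrez gene and, from the same counts, FPKM by the authors. Symbols came from RefSeq and GENCODE for 93.1% of 27178 IDs. Counts of 10 or fewer were even for 74.5% to 77.3% of genes, against about 50% at counts above 100 (49.5% to 51.1%), so intervals and floors of 3 counts, which cover counting error only, are too narrow where mates were counted singly.

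The test was edgeR 4.0.16's quasi-likelihood F-test in R 4.3.3 on the counts of all 10 libraries, with 5 group means, TMM factors, the filterByExpr filter, and 5 residual degrees of freedom. Adjusted p-values are two-sided, Benjamini-Hochberg over 15371 genes, with a threshold of 0.05. With 2 libraries a group, an exact permutation test of 1 gene cannot go below 0.333, so none was run. Levels are TMM-normalised CPM, given per library as PB-CCN1 then PB-GPC4, replicate 1 then 2. Alternatives used DESeq2 1.42.0 and limma 3.58.1, among others. The fit was checked on simulated data.

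Members, gene lists and rules were chosen with earlier results of these data known. The lung epithelium and 7SK lists were written after the values were seen. The rule for named genes took Ccn1, Gpc4, the 12 largest called differences each way at an average of at least 1 CPM without overlap, leaving out predicted names, and up to 3 called members of each list by smallest adjusted p; others are named as members of a list or for contrast, after their values were seen.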

Additional observations from a re-analysis of the deposited data

How the results depend on the processing

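The count of 331 called genes was 328 with size factors by relative log expression, 378 with DESeq2 and 397 with the length trend removed. It was 589 without a filter on low counts (269 higher in PB-CCN1 and 320 in PB-GPC4), 835 with the 4 libraries fitted alone (450 and 385), 990 with the 6 E15.5 libraries alone (520 and 470), and, with limma on log2 FPKM, 76 at a pseudocount of 1 and 82 at 0.1. DESeq2 split 179 and 199, and the length trend fit 216 and 181. Leaving out each library in turn gave 77 to 596 calls; where this left 1 library in a group, that library was assumed to vary like the other groups, and the cause of the moves was not tested. No named gene changed direction under the 19 alternatives. Of the 66 named genes, 66 kept their call with the 4 libraries alone, 25 with limma on either FPKM scale, and 26 to 39 when a PB-CCN1 or PB-GPC4 library was left out. edgeR and DESeq2 both called 275 genes, and 57 were called by edgeR, DESeq2 and limma. With the replicate number as a block 378 genes were called. Deviations of same-numbered libraries correlated at -0.00535 between PB-CCN1 and PB-GPC4. The correlation was 0.018 between PB-CCN1 and PB-Ctrl and -0.0163 between PB-GPC4 and PB-Ctrl. These values show no shared shift across genes, but cannot tell whether same-numbered libraries were prepared together. At this depth the chosen floor of 3 counts corresponds to 0.0984 to 0.134 CPM per library. Levels below it rest on fewer than 3 counts.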

Other observations

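A group outside the lists described so far, noticed in the values and then listed, comprised the 7SK small nuclear ribonucleoprotein, which holds the elongation factor P-TEFb inactive, and its partners. Of 10 genes, 5 were higher in PB-CCN1 and none in PB-GPC4, against 1.40% and 0.755% of all genes. The median log2 fold change was 0.21. Mepce, the enzyme that caps 7SK RNA, was at 66.7 and 63.2 CPM in PB-CCN1 and at 41.5 and 45.2 CPM in PB-GPC4, with 65 and 67.8 CPM in PB-Ctrl (edgeR adjusted p = 1.17e-05). Hexim1, the inhibitor that the complex uses, was at 91.8 and 90.4 CPM against 70.4 and 65 CPM (edgeR adjusted p = 0.000145), with 96.8 and 101 CPM in PB-Ctrl. For both genes the PB-GPC4 libraries were the low ones. The related Hexim2, the bromodomain protein Brd2 and the 7SK RNA itself, Rn7sk, at 13.3 and 24.8 CPM against 12.6 and 9.32 CPM, were also called. For Rn7sk the replicate 1 libraries were close to each other, and only PB-CCN1 replicate 2 stood apart. The count of 5 was 3 without either PB-CCN1 replicate, 3 without PB-GPC4 replicate 1 and 2 without PB-GPC4 replicate 2, and Mepce and Hexim1 stayed called in each. The list was chosen for these values and supports no test of its own.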
